A study of Oryza sativa with 4 samples.

Results

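The genes described here are those of rice whose annotation names a seed reserve, a lipid droplet protein or a glyoxylate cycle enzyme. They were taken from the deposited transcript table by the words glutelin, prolamin, globulin, vicilin, seed storage, oleosin, caleosin, isocitrate lyase, malate synthase and 11-S, leaving out descriptions that hold the words lipid transfer. Genes whose description has only the abbreviation LTP, for lipid transfer protein, were not removed by this, and 3 of them are among the members. For each gene the matching transcript with the highest mean FPKM over the libraries was kept. This gave 31 genes of 31414, from 36 matching transcripts. Of the 31 genes, 24 fit the words by meaning and 7 matched as part of another word, namely 5 immunoglobulin-domain genes and 2 isopropylmalate synthase genes.

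Whole 3-week-old plants of 2 genotypes were sequenced to find genes whose expression differed between them. The NT control was the nontransgenic cultivar Nakdong, and OsC3H10OX was a transgenic line in the same cultivar with OsC3H10, a CCCH zinc finger gene which the sample labels call OsTZF8, driven throughout the plant by the PGD1 promoter. OsC3H10OX was represented by line 20 alone, in the T4 generation. Seeds of both groups germinated in the dark for 3 days, and the seedlings then grew in soil without treatment. Each group had 2 libraries, called replicates 1 and 2, which the study describes as biological replicates. How many plants entered a library is not given in the sources used here. The overexpressed gene itself was not analysed here.

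Cereal seeds store protein in the endosperm as glutelins and prolamins, and store oil in the embryo and aleurone as lipid droplets coated with oleosins and caleosins. After germination the oil is broken down by beta-oxidation in peroxisomes. Isocitrate lyase and malate synthase, the enzymes particular to the glyoxylate cycle, then turn the resulting acetyl-CoA into organic acids from which sugars can be made. Storage proteins and oleosins are typically made in maturing seeds, whereas some caleosins and the glyoxylate enzymes are also expressed in vegetative tissue, for instance under stress or in senescing leaves.

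FPKM, the number of fragments mapped to a transcript relative to its length and to the size of the library, was deposited for 37972 transcripts. The steps of low FPKM values put 1 FPKM at 36.9 and 56.9 fragments for each kilobase of transcript in the NT libraries and at 41.2 and 37.9 in the OsC3H10OX libraries, replicate 1 first, so NT replicate 2 was the deepest library. The reference gene OsUBI1 (Os06g0681400) had 356 to 419 FPKM. Of the tissue markers, 3 RuBisCO small subunit genes for leaf summed to 5803 and 5429 FPKM in NT and to 7549 and 8650 in OsC3H10OX. For root, the genes of RCc3 and of the silicon transporters Os02g0745100 and Os03g0107300 summed to 609.6 and 603 FPKM in NT and to 523 and 485 in OsC3H10OX. None of these 6 markers was at 0 and none was called, with log2 fold changes from -0.44 to 1.03 and an unadjusted p under 0.05 for 2 leaf genes, which were higher, and 1 root gene, which was lower. The markers of a tissue did not all go the same way. For leaf the log2 fold changes ran from -0.18 to 1.03. For root they ran from -0.44 to 0.21, with a median of 0.18. The part of these differences in the results below was not tested. In whole plants fewer cells of a type and less RNA per cell cannot be told apart.

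In OsC3H10OX caleosin transcripts of a pair of neighbouring genes fell, while transcripts of the 2 oleosin genes and of the 5 genes annotated as a storage protein itself were at 0.0111 to 4.26 FPKM in both genotypes. Some genes annotated only as glutelin family protein reached higher levels, up to 146 FPKM. The highest fold change among the 31 genes was that of isocitrate lyase, with 1.21 ± 0.153 FPKM in NT and 24.04 ± 21.95 FPKM in OsC3H10OX (SD, n = 2), which did not pass the test. The caleosin-annotated transcript of Os06g0254300, a minor part of its gene, fell from 21.4 ± 2.52 to 0.0918 ± 0.0302 FPKM (SD, n = 2). The mean sum over the transcripts of that gene was 2.45-fold lower and did not pass the test. The transcript of Os06g0254600 fell from 8.37 ± 0.439 to 0.781 ± 0.302 FPKM (SD, n = 2). Differences were tested with limma over the 30449 transcripts that reached 1 FPKM in 2 or more libraries. Called means a p under 0.05 after Benjamini-Hochberg (BH) adjustment. Log2 fold changes were computed from the log2 values of the authors, as OsC3H10OX minus NT. They have 1 FPKM added before the logarithm and therefore understate changes of low transcripts.

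Of the 31 genes 22 could be tested by the kept transcript. By the kept transcript none was called higher, against 0.647% of all tested transcripts, and 2 were called lower, both of caleosin genes, against 0.841%. At an unadjusted p under 0.05, 3 of the 22 were higher and 5 lower, where 8.35% and 9.36% of all tested transcripts were, so the counts of the lists below are to be read beside these shares. Both called caleosin transcripts passed the filter through the NT libraries alone, so their passing already needed a difference. By a fold of at least 2 on the log2 values, with no test, 2 of the 31 were higher and 2 lower, beside 1.80% and 1.79% of all listed transcripts. OsC3H10OX lay above NT in both libraries for 9 of the 22 and below for 7, where 25.1% and 28.1% of all tested transcripts did so. Without the genes matched as part of another word, 5 of 15 lay above and 7 below. Of these 15, 2 were higher and 5 lower at an unadjusted p under 0.05 (limma).

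**Figure D1:**
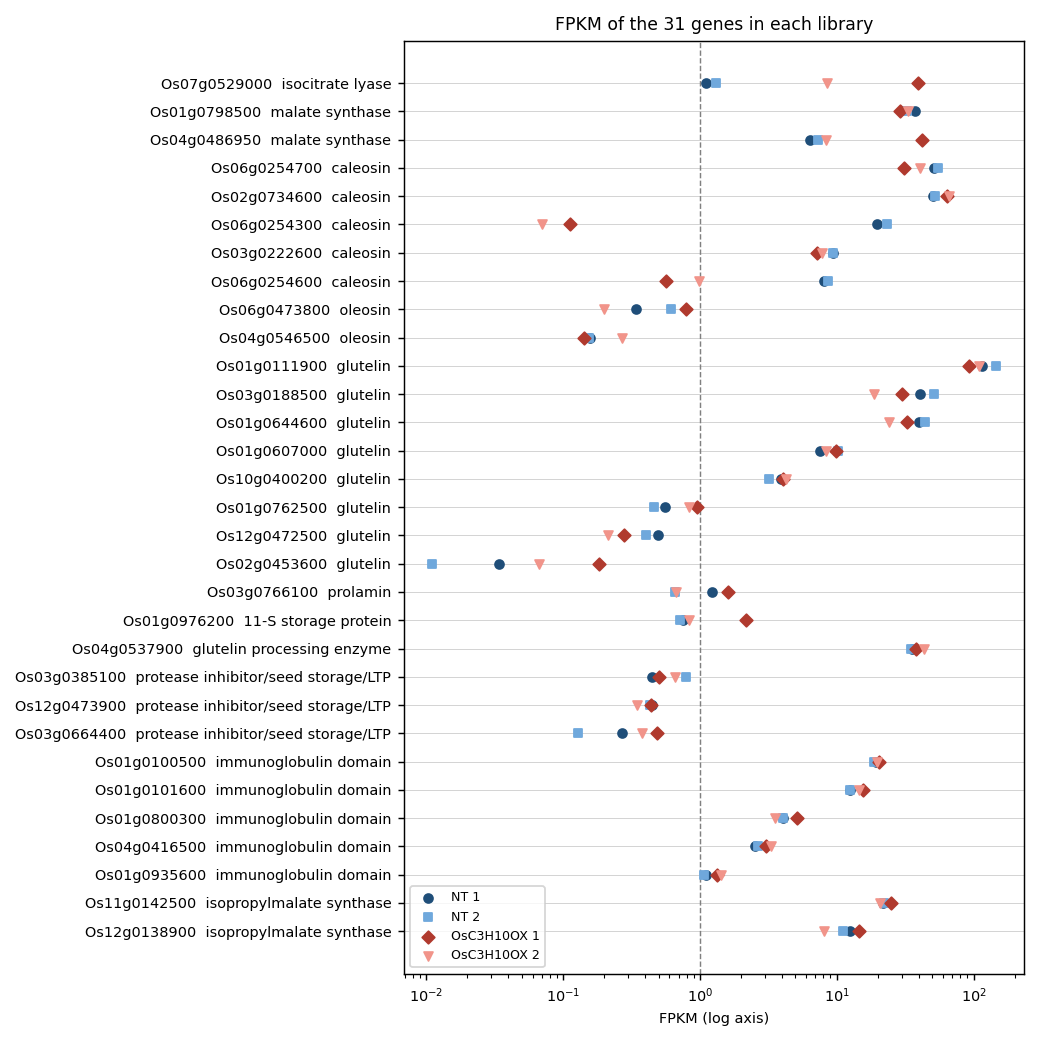
FPKM on a log axis of each of the 31 genes in the 2 NT and the 2 OsC3H10OX libraries, ordered by role, with a dashed line at 1 FPKM. Isocitrate lyase and malate synthase Os04g0486950 were highest in OsC3H10OX replicate 1. The kept transcripts of the caleosin genes Os06g0254300 and Os06g0254600 lay below 1 FPKM in both OsC3H10OX libraries. Other transcripts of the 31 genes are not plotted here.

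**Figure D2:**
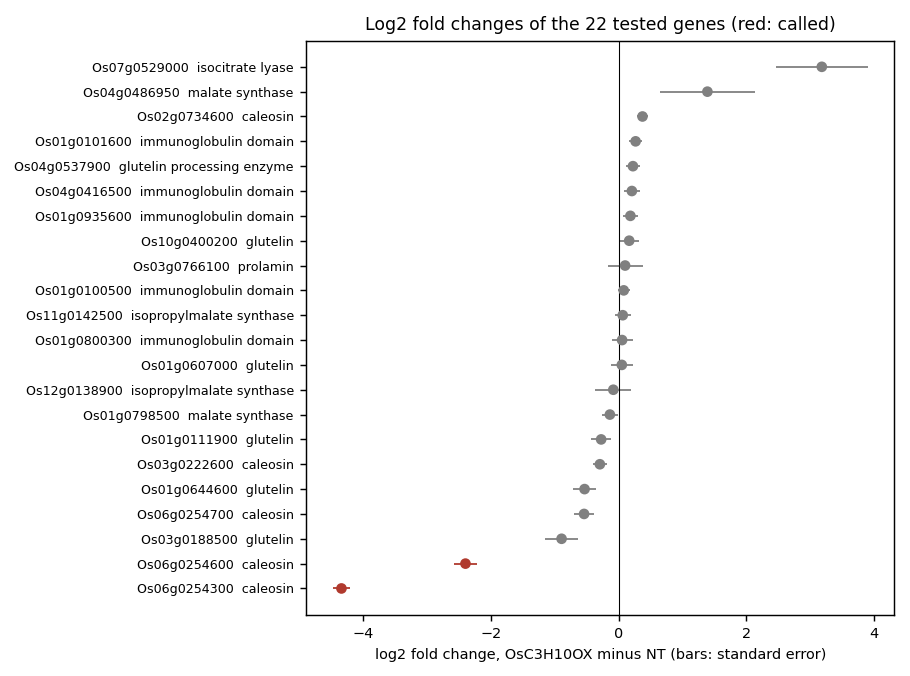
Log2 fold changes of the 22 tested genes, as points with standard errors from limma. The 2 called transcripts, in red, lie at -4.34 and -2.40, and isocitrate lyase at 3.18 has a standard error of 0.72.

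Isocitrate lyase (Os07g0529000, chromosome 7, 20691212 to 20693521, IRGSP-1.0), which splits isocitrate into succinate and glyoxylate, had 1.10 and 1.32 FPKM in NT and 39.6 and 8.51 FPKM in OsC3H10OX. Both OsC3H10OX libraries lay above both NT libraries, and replicate 1 stood 4.65-fold above replicate 2. These levels correspond to about 78 and 144 fragments in NT and 3115 and 616 in OsC3H10OX, so counting error was small beside the spread between libraries. The mean level was 19.8-fold higher in OsC3H10OX, with a log2 fold change of 3.18 ± 0.72 (SE) that was not called (limma, BH-adjusted p = 0.159).

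Malate synthase (Os04g0486950, chromosome 4, 24325768 to 24328250), which joins glyoxylate and acetyl-CoA to malate, had 6.38 and 7.28 FPKM in NT and 41.7 and 8.42 FPKM in OsC3H10OX. Here replicate 1 alone stood clearly apart, 4.95-fold above replicate 2, which was close to NT. The log2 fold change was 1.39 ± 0.75 (SE) and was not called (limma, BH-adjusted p = 0.406). Among all tested transcripts 205 (0.673%) were at least 4-fold higher in OsC3H10OX replicate 1 than in replicate 2, and both enzymes belonged to them.

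The calls of these enzymes rested on the OsC3H10OX libraries. Without OsC3H10OX replicate 1 isocitrate lyase was called higher, at a log2 fold change of 2.13 (limma, BH-adjusted p = 0.0434). Without replicate 2 isocitrate lyase and malate synthase were both called, at 4.23 and 2.49 (limma, BH-adjusted p = 0.0178 and 0.0205). In each of these fits the remaining OsC3H10OX library was assumed to vary like the NT libraries, which the pair of OsC3H10OX values for these genes did not do.

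A further gene annotated as malate synthase-like (Os01g0798500, chromosome 1) had 37.1 and 32.6 FPKM in NT and 28.8 and 33.3 FPKM in OsC3H10OX. Its groups overlapped (log2 fold change -0.14 ± 0.13 SE, limma, BH-adjusted p = 0.608), and it did not share the high value of OsC3H10OX replicate 1.

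Other genes of fat breakdown and sugar formation were taken from lists by annotation words. Of 19 beta-oxidation genes 18 could be tested, none was called, where 2 higher and 1 lower gene had an unadjusted p under 0.05, beside 8.35% and 9.36% of all tested transcripts. Their median log2 fold change was 0.20, where the median over all tested transcripts was 0.00171. An acyl-CoA synthetase (Os06g0158000), of the enzymes that activate fatty acids, had 2.12 and 2.22 FPKM in NT and 5.04 and 3.72 FPKM in OsC3H10OX (log2 fold change 0.74 ± 0.15 SE, limma, BH-adjusted p = 0.128). An acyl-CoA oxidase (Os06g0354500), which starts beta-oxidation in the peroxisome, had 19.1 FPKM in both NT libraries and 26.9 and 22.7 FPKM in OsC3H10OX (0.38 ± 0.12 SE, adjusted p = 0.240). A fatty acid CoA ligase (Os11g0169800) went the other way, with 10.2 and 10.5 FPKM in NT and 7.55 and 7.37 FPKM in OsC3H10OX (-0.42 ± 0.10 SE, adjusted p = 0.167). In these 18 genes OsC3H10OX replicate 1 was above replicate 2 in 13, against 53.7% of all tested transcripts.

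A list of 36 genes, all tested, was matched by names of partner enzymes of the glyoxylate cycle and of gluconeogenesis. It also held genes matched as part of another name, such as the isopropylmalate dehydrogenases Os03g0655700 and Os01g0276100. Its counts are therefore not of these pathways alone. In the list 1 gene was called lower and none higher. At an unadjusted p under 0.05, 1 was higher and 5 lower, beside 8.35% and 9.36% of all tested transcripts. The called gene was annotated as an NADP-dependent malate dehydrogenase (Os12g0267064), an enzyme usually linked to redox balance and not to the glyoxylate cycle. It had 9.93 and 10.3 FPKM in NT and 3.27 and 3.22 FPKM in OsC3H10OX (log2 fold change -1.40 ± 0.10 SE, limma, BH-adjusted p = 0.0224). The call was lost without either NT library, without OsC3H10OX replicate 1 and with no filter (adjusted p = 0.0532 to 0.238). A gene of the same annotation (Os01g0933400) and an isocitrate dehydrogenase (Os05g0573200) were not called, with log2 fold changes of -0.85 and -0.99 (limma, BH-adjusted p = 0.0597 and 0.0594). The list held 4 genes annotated with phosphoenolpyruvate carboxykinase, which leads from organic acids to sugars, and they were named here after their values were seen. None of the 4 was called (limma, BH-adjusted p = 0.171 to 0.879). Os10g0204300 had 16.8 and 16.9 FPKM in NT and 23.7 and 21.5 FPKM in OsC3H10OX (log2 fold change 0.42 ± 0.10 SE, unadjusted p = 0.0114 by limma). Its neighbour by number, Os10g0204400, had 4.85 and 5.13 FPKM in NT and 26.6 and 2.12 FPKM in OsC3H10OX, so its groups overlapped. Its OsC3H10OX libraries lay 12.5-fold apart, more than those of isocitrate lyase and malate synthase. The models of these 2 neighbours overlap on chromosome 10 (7435158 to 7442007 and 7438367 to 7444003). How shared reads were divided between them is not given, so the level of either is uncertain. Os04g0592500 and Os03g0255500 had log2 fold changes of 0.24 and 0.05.

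**Figure D3:**
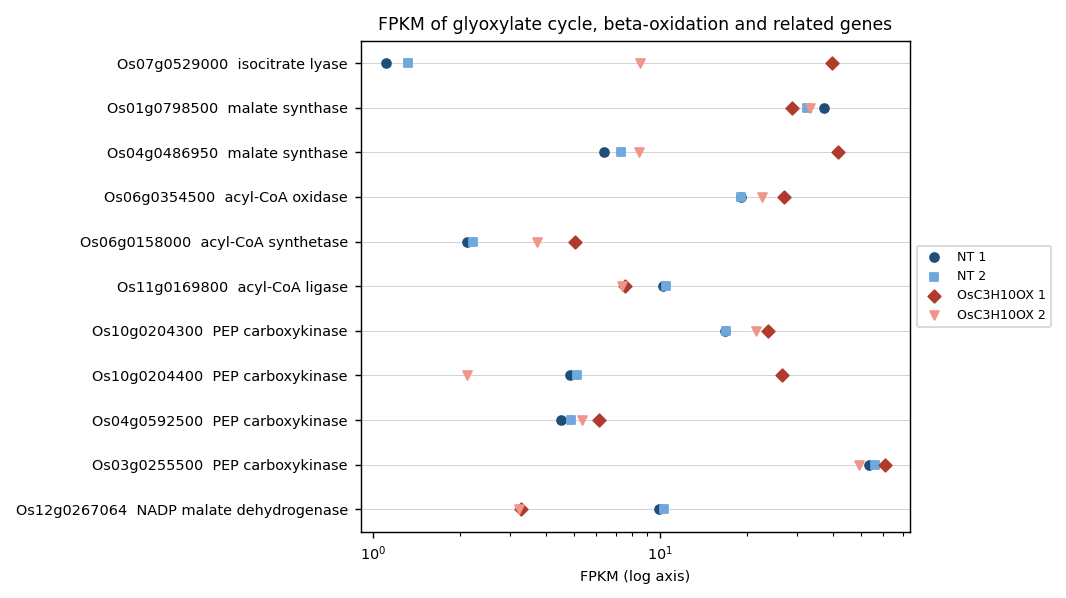
FPKM on a log axis of genes annotated as isocitrate lyase, malate synthase and malate synthase-like, and of 3 beta-oxidation genes, in each library. Also plotted are 4 genes annotated with phosphoenolpyruvate (PEP) carboxykinase and the called NADP malate dehydrogenase. The wide gap between the OsC3H10OX replicates is seen in isocitrate lyase (39.6 and 8.51 FPKM) and malate synthase Os04g0486950 (41.7 and 8.42 FPKM) and in PEP carboxykinase Os10g0204400 (26.6 and 2.12 FPKM), and the other genes plotted show no gap of that size.

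Caleosins are lipid droplet proteins that bind calcium, and members of the family in Arabidopsis act as peroxygenases on fatty acid hydroperoxides. The 5 rice caleosin genes of the table comprised 3 neighbours on chromosome 6 within 30.9 kb (7983972 to 8014834), 1 gene on chromosome 2 and 1 on chromosome 3. All 5 were expressed in NT. By the kept transcript 2 of these genes were called lower and none higher, beside 0.841% and 0.647% of all tested transcripts. For Os06g0254300 the sum over its transcripts was not called.

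For Os06g0254300 the caleosin-annotated transcript, Os06t0254300-02 (7983972 to 7987947, 2119 nt), had 19.6 and 23.2 FPKM in NT and 0.113 and 0.0705 FPKM in OsC3H10OX. The groups lay far apart, and the OsC3H10OX values correspond to about 9 and 5 fragments. The log2 fold change was -4.34 ± 0.13 (SE, limma, BH-adjusted p = 0.00334), and the mean FPKM was 233-fold lower. Without NT replicate 2 the change was -4.24 and was not called (limma, BH-adjusted p = 0.0711).

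This transcript was a minor part of its gene. Transcript Os06t0254300-03 (7983988 to 7990817, 889 nt), annotated as an EF-hand calcium-binding protein, had 99.9 and 88.8 FPKM in NT and 34.4 and 60.1 FPKM in OsC3H10OX. It was lower in both OsC3H10OX libraries and was not called (log2 fold change -0.97 ± 0.29 SE, limma, BH-adjusted p = 0.224). The caleosin-annotated transcript took 16.3% and 20.5% of the gene's summed FPKM in NT and 0.322% and 0.116% in OsC3H10OX. The third transcript, Os06t0254300-01, had 1.01 and 1.48 FPKM in NT and 0.635 and 0.343 FPKM in OsC3H10OX, again lower in both OsC3H10OX libraries and not called (log2 fold change -0.59 ± 0.16 SE, limma, BH-adjusted p = 0.206).

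Summed over its transcripts, Os06g0254300 had 121 and 113 FPKM in NT and 35.1 and 60.6 FPKM in OsC3H10OX. The mean sum was 2.45-fold lower in OsC3H10OX, and on this scale the gene was not called (log2 fold change -1.26 ± 0.27 SE, limma, BH-adjusted p = 0.116). The sum includes the annotated transcript, so the smaller difference of the whole gene is not independent of the near-loss of that transcript. The transcripts overlap in the genome, and how the estimating tool divided shared reads among them is not given in the sources used here.

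**Figure D4:**
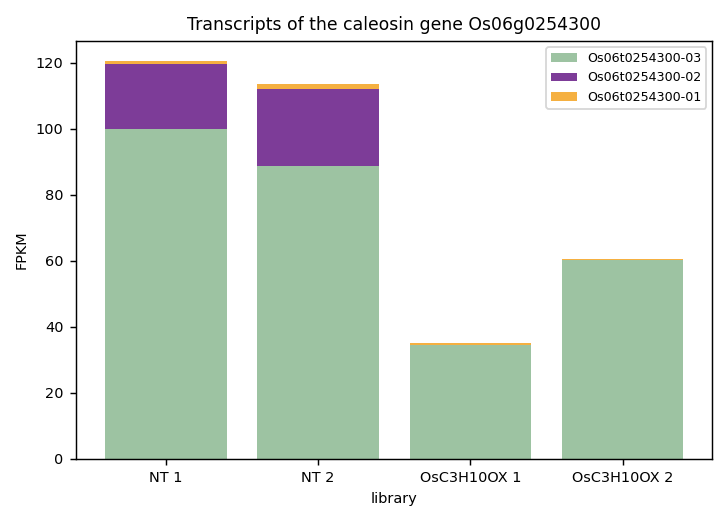
Stacked bars of the FPKM of the 3 transcripts of Os06g0254300 in each library. Transcript -02 adds 19.6 and 23.2 FPKM in NT and is too small to see in OsC3H10OX, whereas transcript -03 makes up most of every bar.

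The next gene, Os06g0254600 (7996916 to 8004842), has a single transcript in the table and had 8.06 and 8.68 FPKM in NT and 0.568 and 0.995 FPKM in OsC3H10OX. The groups did not overlap, with about 217 and 361 fragments in NT and 17 and 27 in OsC3H10OX. Its log2 fold change was -2.40 ± 0.17 (SE, limma, BH-adjusted p = 0.0212), and the mean FPKM was 10.7-fold lower. The direction was the same in every fit, but the call was lost without NT replicate 1, without NT replicate 2 and with no filter (limma, BH-adjusted p = 0.0655 to 0.204).

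The third neighbour, Os06g0254700 (8011878 to 8014834), had 51.8 and 54.7 FPKM in NT and 30.99 and 40.5 FPKM in OsC3H10OX. It was lower in both OsC3H10OX libraries and was not called (log2 fold change -0.54 ± 0.16 SE, limma, BH-adjusted p = 0.219). All 3 neighbours thus lay below NT in both OsC3H10OX libraries, as did 28.1% of all tested transcripts. Reads of related copies such as these may be divided among them by the mapping, which makes the level of a single copy uncertain.

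**Figure D5:**
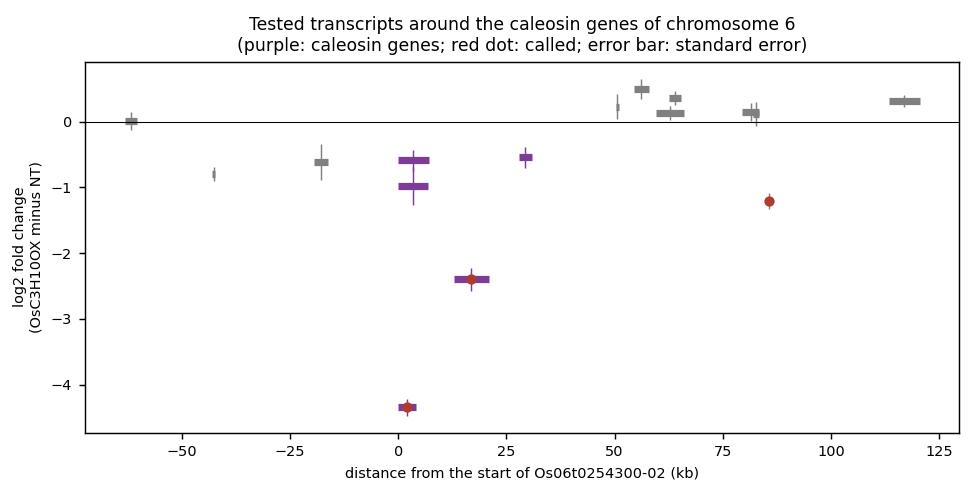
Log2 fold changes with standard errors of the 16 tested transcripts around the caleosin genes of chromosome 6, drawn as bars over their extent, against the distance in kb from the start of Os06t0254300-02. The purple caleosin transcripts all lie below 0, from -4.34 to -0.54. Red dots mark the 3 called transcripts of the window, 2 of them of the caleosin genes around which it was drawn.

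Neither of the caleosin genes elsewhere was called. The gene on chromosome 2, Os02g0734600 (30652549 to 30654596), had 51.0 and 52.5 FPKM in NT and 63.5 and 66.1 FPKM in OsC3H10OX, which lay above NT (log2 fold change 0.37 ± 0.09 SE, limma, BH-adjusted p = 0.167). On chromosome 3, Os03g0222600 had 9.45 and 9.38 FPKM in NT and 7.14 and 7.80 FPKM in OsC3H10OX (-0.29 ± 0.11 SE, limma, BH-adjusted p = 0.295). The difference between these genes and the chromosome 6 neighbours was not tested.

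Oleosins, which cover the surface of seed lipid droplets, had low levels in all 4 libraries. Os06g0473800 had 0.340 and 0.616 FPKM in NT and 0.798 and 0.1995 FPKM in OsC3H10OX, and Os04g0546500 had 0.159 and 0.155 FPKM in NT and 0.144 and 0.272 FPKM in OsC3H10OX. The groups overlapped in both genes, and with 3 to 14 fragments per library neither passed the filter. At so few fragments a small difference between genotypes could not be seen.

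Of 28 other genes annotated for lipid droplets, triacylglycerol synthesis or lipid hydrolysis, 26 could be tested and none was called, where 4 higher and 4 lower genes had an unadjusted p under 0.05, beside 8.35% and 9.36% of all tested transcripts. The smallest p belonged to a patatin-like gene (Os11g0614500), of a family of lipid acyl hydrolases. It had 1.89 and 2.33 FPKM in NT and 5.01 and 5.45 FPKM in OsC3H10OX (log2 fold change 0.999 ± 0.13 SE, limma, BH-adjusted p = 0.0630). Of the genes annotated as triacylglycerol lipase, Os01g0253900 had 3.61 and 5.39 FPKM in NT and 9.69 and 8.31 FPKM in OsC3H10OX, and Os07g0586800 had 3.51 and 3.72 FPKM in NT and 2.32 and 2.21 FPKM in OsC3H10OX. Neither was called, at 0.88 and -0.51 on the log2 scale (limma, BH-adjusted p = 0.142 and 0.148).

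The storage proteins are given in 2 groups by annotation. The 5 genes annotated as a glutelin, prolamin or 11-S storage protein itself were at 0.0111 to 4.26 FPKM. The prolamin gene (Os03g0766100), for a 10 kDa endosperm protein, had 1.23 and 0.664 FPKM in NT and 1.60 and 0.669 FPKM in OsC3H10OX (log2 fold change 0.10 ± 0.28 SE, limma, BH-adjusted p = 0.874). Its groups overlapped, and in both groups replicate 1 was the higher library. Glutelin type II (Os10g0400200) had 3.93 and 3.23 FPKM in NT and 4.05 and 4.26 FPKM in OsC3H10OX, with a log2 fold change of 0.17 ± 0.15 (SE) that was not called (limma, BH-adjusted p = 0.597). The 11-S storage protein (Os01g0976200) had 0.750 and 0.720 FPKM in NT and 2.16 and 0.835 FPKM in OsC3H10OX. It exceeded 1 FPKM in OsC3H10OX replicate 1 alone and was not tested. A glutelin subunit gene (Os01g0762500) had 0.558 and 0.461 FPKM in NT and 0.957 and 0.837 FPKM in OsC3H10OX, and a glutelin-like gene (Os02g0453600) had 0.0340 and 0.0111 FPKM in NT and 0.184 and 0.0665 FPKM in OsC3H10OX, the latter from 1 to 12 fragments. These 5 genes together gave 6.50 and 5.08 FPKM in NT and 8.96 and 6.66 FPKM in OsC3H10OX.

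Together the 5 genes annotated only as glutelin family protein gave far more, with 204 and 252 FPKM in sum in NT and 165 and 161 FPKM in OsC3H10OX. Not all 5 were high, as Os12g0472500 had 0.213 to 0.497 FPKM. This annotation marks a likeness in sequence, and whether their products are stored in seeds is not stated. The highest was Os01g0111900 (chromosome 1, 625985 to 627009), with 116 and 146 FPKM in NT and 92.2 and 110.1 FPKM in OsC3H10OX (log2 fold change -0.27 ± 0.16 SE, limma, BH-adjusted p = 0.426). Os03g0188500 (chromosome 3, 4634962 to 4635591) had 40.8 and 51.2 FPKM in NT and 30.0 and 18.6 FPKM in OsC3H10OX (-0.89 ± 0.26 SE, limma, BH-adjusted p = 0.221). Os01g0644600 had 39.6 and 44.3 FPKM in NT and 32.6 and 24.1 FPKM in OsC3H10OX (-0.53 ± 0.18 SE, limma, BH-adjusted p = 0.249). Both OsC3H10OX libraries lay below both NT libraries in these 3 of the 4 tested genes. Of all tested transcripts 28.1% did so, and the differences of the 3 genes did not pass the test. Os01g0607000, at 7.52 to 10.2 FPKM, overlapped between the groups, and Os12g0472500, at 0.213 to 0.497 FPKM, was not tested.

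The seed-type vacuolar processing enzyme (Os04g0537900, chromosome 4), the protease that matures glutelins, had 35.6 and 34.9 FPKM in NT and 37.7 and 43.5 FPKM in OsC3H10OX (log2 fold change 0.22 ± 0.11 SE, limma, BH-adjusted p = 0.369). The kept transcripts of the 3 genes annotated as protease inhibitor/seed storage/LTP had 0.129 to 0.790 FPKM and were not tested. For Os03g0664400 the kept transcript was 3.48% of the gene's FPKM. Its other transcript, annotated as an expressed protein, had 8.38 and 11.5 FPKM in NT and 8.03 and 7.35 FPKM in OsC3H10OX. That transcript was tested and not called (log2 fold change -0.32 ± 0.17 SE, limma, BH-adjusted p = 0.400). The kept transcripts of the 5 immunoglobulin-domain genes ran from 1.08 to 20.4 FPKM with log2 fold changes of 0.05 to 0.27. Those of the 2 isopropylmalate synthase genes, of leucine synthesis, ran from 8.11 to 25.03 FPKM with -0.08 and 0.06. None of these 7 was called, with 1 higher at an unadjusted p under 0.05 (limma, BH-adjusted p = 0.276 to 0.898). The most abundant of them by the kept transcript, isopropylmalate synthase Os11g0142500, had 21.95 and 22.2 FPKM in NT and 25.03 and 20.7 FPKM in OsC3H10OX.

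Seed maturation genes outside the storage proteins were compared as well. Of 28 genes for late embryogenesis abundant (LEA) proteins and dehydrins, which protect cells during desiccation, 18 could be tested. Of these 1 was called higher and none lower, beside 0.647% and 0.841% of all tested transcripts. At an unadjusted p under 0.05, 5 were higher and 3 lower, beside 8.35% and 9.36%. The median log2 fold change was 0.06. The called gene, Os01g0705200, had 0.392 and 0.553 FPKM in NT and 3.48 and 3.90 FPKM in OsC3H10OX (log2 fold change 1.66, limma, BH-adjusted p = 0.0243). The call was lost without either NT library, without OsC3H10OX replicate 1 and with no filter. Os01g0705200 passed the filter through the OsC3H10OX libraries alone, as did the dehydrin RAB 16B gene, so their passing already needed a difference. The dehydrin RAB 16B gene (Os11g0454200) and the LEA group 1 gene Os04g0589800 were not called, at log2 fold changes of 1.95 and 1.51 (limma, BH-adjusted p = 0.0853 and 0.0983). Without OsC3H10OX replicate 2 both were called, at 2.37 and 1.85 (limma, BH-adjusted p = 0.0290 and 0.0326). Of the LEA and dehydrin genes, 10 could not be tested. Among them Os03g0168100 had 0.0398 and 0.0649 FPKM in NT and 4.53 and 0.973 FPKM in OsC3H10OX. These correspond to about 2 and 5 fragments against 253 and 50. Os05g0542500 had about 0 fragments in both NT libraries and 32 and 5 in OsC3H10OX. Os01g0624400 lay the other way, with 0.609 and 0.626 FPKM in NT and 0.229 and 0.447 FPKM in OsC3H10OX. These genes were named after their values were seen. The 3 genes annotated for seed allergens or related inhibitors had 0.0483 to 0.860 FPKM, and none could be tested.

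Of 7 genes matched by alpha-amylase, for starch breakdown or for inhibitors of it, 3 could be tested and none was called, with 1 higher at an unadjusted p under 0.05. The gene with the smallest p encodes an inhibitor of alpha-amylase and trypsin (Os03g0661600) and not an amylase. It had 6.53 and 6.69 FPKM in NT and 46.7 and 15.5 FPKM in OsC3H10OX (log2 fold change 1.91 ± 0.53 SE, limma, BH-adjusted p = 0.207), again with OsC3H10OX replicate 1 above replicate 2, and was called without replicate 2 (2.68, limma, BH-adjusted p = 0.0198). The amylase genes Os06g0713800 and Os04g0403300 had log2 fold changes of 0.37 and -0.17 (limma, BH-adjusted p = 0.494 and 0.498).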

How the data were processed

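RNA from whole plants of NT and OsC3H10OX, with 2 libraries each, was sequenced from TruSeq (v2) libraries as single-end reads. The authors trimmed reads with Trimmomatic 0.32, mapped them with TopHat to IRGSP-1.0 with RAP-DB gene models and deposited FPKM per transcript. The FPKM tool is not given in the sources used here, and neither is a use of strand. The authors also deposited log2 values, which track log2(FPKM + 1) and are quantile-normalized (sorted libraries differ by at most 0.00178). Deposited fold changes, p-values, means and SDs were not used.

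The log2 values were fitted with limma 3.58.1 in R 4.3.3 (mean-variance trend, BH over 30449 transcripts), a step tested on simulated data. With 2 libraries a group, the smallest p of an exact permutation test would be 0.333. limma estimates the spread with help from all transcripts. The study's methods give as its own rule a fold of 2 or more together with an independent t-test p under 0.05. Members, lists and alternatives were chosen with earlier results of these data known. Named were called genes, those at a log2 fold change of 1 or more, the 2 highest of each role, all lipid droplet and glyoxylate members, and up to 3 genes of each list by p. Fragment numbers come from low FPKM of genes with 1 transcript, where 91.5% to 93.2% were whole within 0.05. The length correction of 180 nt was set after seeing the values. No growth or sequencing batch is labelled, so batch and genotype cannot be told apart. Alternatives were other scalings, filters, spread models, gene sums, a replicate block and each library left out. No member identifier matched the RefSeq gene table, so the planned promoter and protein descriptions were not run.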

Additional observations from a re-analysis of the deposited data

How the results depend on the processing

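No member was called higher under any setting that kept all libraries. Leaving out each library gave 0 to 2 members called higher and 0 to 2 called lower. The count called lower was 1 with no filter, 1 with FPKM summed per gene and 1 with a replicate block, and 2 under the other settings with all libraries. Nothing states that equal replicate numbers pair libraries, and the NT and OsC3H10OX deviations of replicate 1 correlated at -0.0258 over transcripts. Under the block limma called 17 transcripts higher and 8 lower of all tested, instead of 197 and 256. Os06g0254600, Os12g0267064 and Os01g0705200 lost their calls under the block (limma, BH-adjusted p = 0.0720, 0.0962 and 0.0915) and with no filter (0.0655, 0.0591 and 0.0591). Without NT replicate 2 limma called none of all tested transcripts, with 2488 at an unadjusted p under 0.05. With no filter it called 58 higher and 68 lower, and with gene sums 287 and 343. The log2 fold change of the prolamin gene Os03g0766100 ran from -0.20 to 0.40 over the fits with a library left out, and that of Os11g0142500 from -0.070 to 0.20, so both changed sign. Of the other comparisons of named genes with their alternatives 312 kept direction and side of the threshold, 16 were no longer called and 9 became called. Gene sums brought Os05g0573200, Os01g0933400 and Os11g0614500 past the threshold (limma, BH-adjusted p = 0.0365, 0.0284 and 0.0345). The cause of these shifts was not tested. FPKM near 0.1 rests on a few fragments, which limits the oleosin and low glutelin genes.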

Other observations

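Around the caleosin genes of chromosome 6, between 7900000 and 8110000, 16 transcripts passed the filter. Of these 3 were called lower, beside 0.841% of all tested transcripts. The window was drawn around the caleosin genes, and 2 of the 3 are their transcripts described above, so the count does not describe the region apart from them. The called transcript outside the caleosins was of a Nudix hydrolase gene (Os06g0255400), with 25.3 and 30.8 FPKM in NT and 11.3 and 11.4 FPKM in OsC3H10OX (log2 fold change -1.21 ± 0.13 SE, limma, BH-adjusted p = 0.0382). The gene just before Os06g0254300, annotated as a potassium channel (Os06g0254200, 7982026 to 7983859), was too low to be tested. It had 0.0164 and 0.0213 FPKM in NT and 0.325 and 0.312 FPKM in OsC3H10OX, from about 1 and 2 fragments against 22 and 20. These genes were named after their values were seen.

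Among genes for regulators of seed storage protein synthesis, 5 of the 6 listed were in the table and 1 could be tested. A Dof zinc finger activator annotated for grain filling (Os02g0252400) had 0.0199 and 0.0130 FPKM in NT, about 1 fragment in each library, and 1.37 and 0.779 FPKM in OsC3H10OX, from about 76 and 40 fragments. A basic leucine zipper activator with the same annotation (Os07g0182000) had 0.371 and 0.495 FPKM in NT and 1.37 and 0.743 FPKM in OsC3H10OX. Both stood above NT in both OsC3H10OX libraries, as did 25.1% of all tested transcripts. Both fell short of the 1 FPKM in at least 2 libraries needed for the test. Neither has a p, so both were named outside the naming rule, with their values known. The remaining untested genes of the list are not described here. The bZIP factor TRAB1 gene (Os08g0472000), which could be tested, had a log2 fold change of 0.19 (limma, BH-adjusted p = 0.510).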
